A study of Mus musculus with 18 samples.

Results

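Dual-specificity MAP kinase phosphatases were described by their mRNA levels in bone marrow-derived macrophages (BMMs) that lacked, carried or overexpressed glucocorticoid-induced leucine zipper (GILZ). The set was a list of 10 genes, Dusp1, Dusp2, Dusp3, Dusp4, Dusp5, Dusp6, Dusp7, Dusp8, Dusp10 and Dusp16, matched by gene symbol and Ensembl identifier. All 10 were found among the 38887 genes of the files and all 10 passed the filter on low counts in every comparison. BMMs came from female C57BL/6J mice and were grown from bone marrow with M-CSF, and 18 libraries were sequenced. Each of 3 genotypes had 3 untreated libraries and 3 of cells given 100 ng/ml LPS for 4 h. LPS (lipopolysaccharide) is a bacterial outer membrane component that activates macrophages through Toll-like receptor signalling. WT mice carried the Lyz2-Cre allele alone (B6.129P2-Lyz2tm1(cre)Ifo/J). GILZ KO mice carried the same Cre together with a loxP-flanked exon of Tsc22d3, the gene that encodes GILZ. GILZ TG mice carried it together with a Gilz cDNA in the ROSA26 locus behind a loxP-flanked stop. By this description all groups share the Cre allele, and the number of its copies in each group is not stated. Cre is driven by the Lyz2 promoter, which is active in the myeloid lineage, so recombination is bound to cells that use it.

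Tsc22d3 followed the labels. Its level was 14.9 to 18.8 TPM (a transcript level scaled by transcript length and library total) in untreated WT, 1.89 to 2.81 TPM in GILZ KO and 152.0 to 159.8 TPM in GILZ TG. After LPS it was 4.56 to 5.81 TPM in WT, 2.50 to 3.28 TPM in GILZ KO and 127.2 to 140.6 TPM in GILZ TG. Lyz2, the locus that holds Cre, was at 6766 to 15401 TPM in the WT libraries. In those of GILZ KO and GILZ TG it was at 17.2 to 70.3 TPM, so the genotypes also differed in this gene. In comparisons with WT, the change in Tsc22d3 and the difference in Lyz2 therefore cannot be told apart. Macrophage markers (7 of 7 found) summed to 3825 to 5021 TPM in every library. Stromal fibroblast markers summed to between 80.2 and 115.0 TPM in GILZ TG replicates 1 and 2, untreated and LPS-treated, and to between 4.88 and 21.8 TPM in the other 14 libraries, with Lum and Pdgfra under 1 TPM throughout. Neutrophil lineage markers summed to 68.3 to 515.8 TPM in GILZ TG against 20.7 to 77.2 TPM elsewhere, with Ly6g and Elane under 1 TPM. B lineage markers summed to 25.5 to 152.9 TPM in GILZ TG against 16.7 to 35.4 TPM elsewhere, with Cd79a and Ms4a1 under 1 TPM. Endothelial markers summed to 18.2 to 40.9 TPM over all libraries, and osteoblast, T cell and erythroid markers to at most 0.36, 0.37 and 1.32 TPM. Several comparisons with GILZ TG are also given without its replicates 1 and 2. The part of these cells in any difference was not tested.

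MAP kinases carry signals from Toll-like and growth factor receptors to transcription factors and to proteins that stabilise cytokine mRNAs. They are switched on when a kinase phosphorylates a threonine and a tyrosine in their activation loop, and the dual-specificity phosphatases remove both phosphates. Dusp1, Dusp2, Dusp4 and Dusp5 encode nuclear enzymes whose transcription is itself induced by MAP kinase signals, Dusp6 and Dusp7 encode cytoplasmic enzymes selective for ERK, and Dusp8, Dusp10 and Dusp16 encode enzymes that prefer JNK and p38. Dusp3 encodes a small enzyme without the kinase-binding domain of the others, which acts on ERK and JNK. In macrophages Dusp1 is best known as the feedback inhibitor of p38 and of cytokine output, and it is a target of glucocorticoids. The phosphatases are regulated by phosphorylation and turnover too, which mRNA levels do not show. In the GENCODE M21 annotation of GRCm38, Dusp2 lies at chr2:127336159-127338376 (plus strand), Dusp5 at chr19:53529109-53542431 (plus), Dusp16 at chr6:134715468-134792625 (minus) and Dusp3 at chr11:101971143-101987013 (minus).

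In untreated WT cells Dusp1 and Dusp3 were the most abundant members, with means of 111.3 and 110.5 TPM, and their replicates overlapped. Dusp4 (78.9 TPM), Dusp7 (65.4 TPM), Dusp6 (59.1 TPM) and Dusp5 (52.4 TPM) followed, each overlapping with the next. Dusp16 at 6.57 TPM, Dusp2 at 4.37 TPM, Dusp10 at 1.44 TPM and Dusp8 at 0.783 TPM were low, and each stood apart from its neighbour in all replicates. After LPS the order changed. Dusp1 led at 215.7 TPM, apart from Dusp2 at 62.9 TPM. Neighbours overlapped from Dusp2 through Dusp3 (42.0 TPM), Dusp6 (39.0 TPM), Dusp4 (37.4 TPM) and Dusp16 (32.3 TPM) to Dusp5 (31.9 TPM). Dusp7 (19.0 TPM), Dusp10 (1.36 TPM) and Dusp8 (0.857 TPM) stood below them. In LPS-treated GILZ TG cells Dusp2, at 92.6 TPM, stood apart from the next member, Dusp6 at 37.9 TPM, whereas in GILZ KO cells Dusp2 at 48.1 TPM and Dusp6 at 43.4 TPM overlapped.

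**Figure D1:**
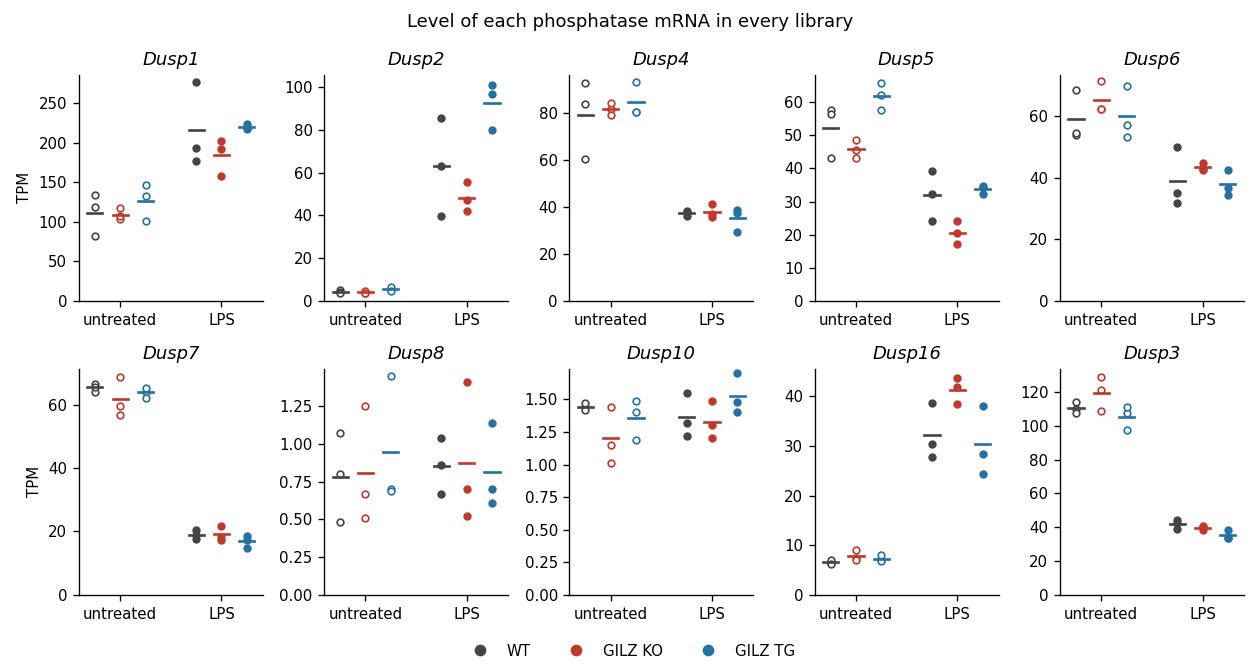
Level of the 10 phosphatase mRNAs in TPM in each of the 18 libraries (open circles untreated, filled circles LPS, lines the mean of 3 replicates). Dusp1, Dusp2 and Dusp16 are higher in all LPS libraries than in all untreated ones, Dusp3, Dusp4, Dusp5, Dusp6 and Dusp7 are lower, and Dusp8 and Dusp10 overlap.

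The first comparison asked how each mRNA responded to LPS within a genotype. Counts were scaled by TMM, which sets a change relative to the middle of all genes, and tested with edgeR's quasi-likelihood test with Benjamini-Hochberg adjustment. On this scale 5 of 10 members rose and 3 fell in WT, 5 rose and 4 fell in GILZ KO, and 4 rose and 3 fell in GILZ TG. Among all 13169 genes tested, 68.6%, 68.5% and 68.7% were called in WT, GILZ KO and GILZ TG. These were 33.5%, 33.2% and 33.6% higher and 35.1%, 35.4% and 35.1% lower, so the members' counts lie near the background. The members' median log2 fold change was 0.24, 0.41 and 0.20 in the same order, beside -0.02 for all genes in each genotype. Their median size of change, regardless of sign, was 0.98, 1.02 and 0.94, beside 0.57, 0.58 and 0.55 for all genes. In bulk RNA, fewer cells of a type and less RNA per cell cannot be told apart.

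The scale matters for these directions. TMM factors were 1.24 to 1.28 in untreated libraries and 0.756 to 0.828 in LPS-treated ones. On log2(TPM + 0.1), without that scaling, the median of all genes moved by -0.62 in WT, -0.64 in GILZ KO and -0.62 in GILZ TG, and of the genes called 19.8%, 18.8% and 19.4% were higher, instead of 48.9%, 48.4% and 48.9% with TMM. Dusp1, Dusp2 and Dusp16 rose and Dusp3, Dusp4 and Dusp7 fell in all genotypes on both scales. Dusp5, Dusp6, Dusp8 and Dusp10 depended on the scale and are given with both values.

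**Figure D2:**
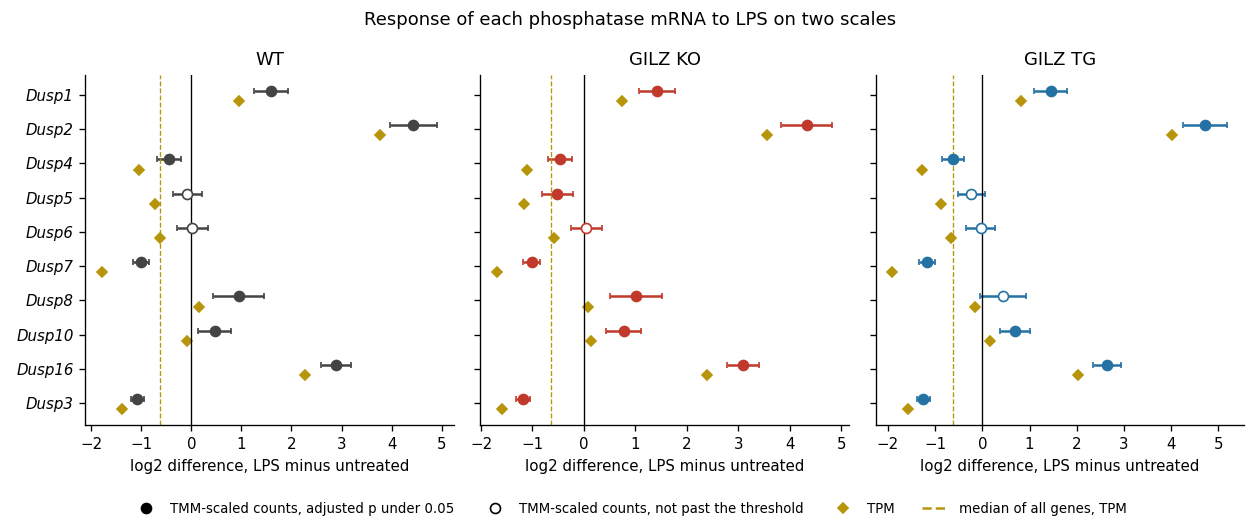
Log2 difference between LPS-treated and untreated cells for each member in WT, GILZ KO and GILZ TG, from TMM-scaled counts (circles, filled where the adjusted p-value was under 0.05, bars 95% intervals) and from log2(TPM + 0.1) (diamonds). Diamonds lie to the left of the circles, and the dashed line marks the median of all genes on the TPM scale; for Dusp6 the circles lie near 0 and the diamonds near that median.

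The members that rose in all genotypes on both scales, Dusp1, Dusp2 and Dusp16, and the member called between genotypes, Dusp5, are shown with the 250 bases before their RefSeq start, to show the elements they hold. RefSeq (GRCm38.p6) held such a stretch for 9 of the 10 members. Capitals mark TGACGTCA, the palindromic cAMP response element, and CArG boxes, the binding element of serum response factor, each searched on both strands. Dusp1 lies at chr17:26508473-26508722 (minus strand), Dusp2 at chr2:127335909-127336158 (plus), Dusp16 at chr6:134792629-134792878 (minus) and Dusp5 at chr19:53528895-53529144 (plus).
Dusp1: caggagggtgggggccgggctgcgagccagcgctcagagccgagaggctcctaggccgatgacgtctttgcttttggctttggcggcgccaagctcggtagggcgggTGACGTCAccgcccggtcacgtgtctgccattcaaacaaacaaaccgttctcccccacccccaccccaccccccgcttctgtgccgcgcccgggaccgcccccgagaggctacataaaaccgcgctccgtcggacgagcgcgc
Dusp2: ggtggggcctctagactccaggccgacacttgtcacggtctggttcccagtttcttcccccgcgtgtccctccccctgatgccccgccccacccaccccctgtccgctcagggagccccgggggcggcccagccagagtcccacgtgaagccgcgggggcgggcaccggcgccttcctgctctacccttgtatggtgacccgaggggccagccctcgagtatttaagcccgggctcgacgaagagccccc
Dusp16: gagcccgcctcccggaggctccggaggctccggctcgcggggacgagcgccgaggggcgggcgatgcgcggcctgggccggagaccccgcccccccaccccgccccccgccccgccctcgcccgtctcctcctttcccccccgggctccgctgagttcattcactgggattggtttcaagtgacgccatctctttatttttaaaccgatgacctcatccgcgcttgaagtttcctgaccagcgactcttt
Dusp5: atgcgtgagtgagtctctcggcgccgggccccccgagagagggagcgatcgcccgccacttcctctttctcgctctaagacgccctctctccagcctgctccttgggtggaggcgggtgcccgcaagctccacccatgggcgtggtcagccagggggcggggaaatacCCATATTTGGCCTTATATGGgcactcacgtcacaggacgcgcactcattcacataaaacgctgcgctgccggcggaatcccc

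TGACGTCA began 143 bases before the start of Dusp1 and also occurred in Dusp8, at 107 and 63 bases, while 1.55% of all 32851 stretches of this length held it. Its core TGACG, which overlaps with it, was found in 4 of 9 members (Dusp1, Dusp5, Dusp8 and Dusp16), against 17.8% of all stretches. Dusp5 held 2 CArG boxes, 82 and 72 bases before the start, an element in 1.47% of all stretches. TGANTCA, the AP-1 element, was in none of the 9 and in 6.75% of all. These are letter matches, and binding was not measured.

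Dusp1 was the most abundant member after LPS in all genotypes. Its levels in WT replicates 1, 2 and 3 were 133.5, 118.7 and 81.7 TPM untreated and 276.4, 193.3 and 177.3 TPM after LPS. In GILZ KO they were 103.0, 106.9 and 117.7 TPM and 158.2, 192.6 and 201.9 TPM. In GILZ TG they were 146.0, 132.5 and 100.6 TPM and 223.8, 219.0 and 217.5 TPM. Every LPS-treated library exceeded every untreated one. The log2 fold change was 1.59 (SE 0.18, edgeR adjusted p = 3.59e-07) in WT, 1.42 (adjusted p = 1.60e-06) in GILZ KO and 1.44 (adjusted p = 1.15e-06) in GILZ TG, a rise of 3.02-, 2.68- and 2.72-fold with TMM scaling. On log2(TPM + 0.1) the differences were 0.96, 0.75 and 0.82.

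Dusp2, which encodes a phosphatase of ERK and p38 typical of activated leukocytes, showed the largest rise of the members. It was at 5.06, 4.34 and 3.70 TPM in untreated WT and at 85.6, 63.2 and 39.9 TPM after LPS. In GILZ KO it went from 3.69, 4.69 and 3.59 TPM to 41.9, 55.4 and 47.1 TPM, and in GILZ TG from 5.58, 6.61 and 4.63 TPM to 100.9, 96.9 and 80.1 TPM. Untreated and LPS-treated libraries did not overlap, and after LPS all GILZ TG libraries lay above all GILZ KO libraries while WT spanned both. The rise was 21.6-fold in WT (log2 4.43, SE 0.24, edgeR adjusted p = 2.60e-11) and 26.3-fold in GILZ TG (log2 4.72), with a log2 value of 4.33 in GILZ KO.

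Dusp4 and Dusp5, the other nuclear inducible members, did not rise at 4 h. Dusp4, an ERK and JNK phosphatase, was at 60.2 to 93.0 TPM in the 9 untreated libraries (median 81.7) and at 29.4 to 41.4 TPM after LPS (median 37.3), without overlap. It fell by 0.44 in WT, 0.46 in GILZ KO and 0.63 in GILZ TG on the log2 scale of TMM-scaled counts (edgeR adjusted p = 0.00354, 0.00277 and 1.79e-04). Without GILZ TG replicates 1 and 2 the GILZ TG value was -0.43 with an adjusted p of 0.0537. Dusp5, an ERK-specific nuclear phosphatase, was at 57.6, 56.4 and 43.1 TPM in untreated WT and at 39.4, 32.2 and 24.01 TPM after LPS. In GILZ KO it went from 45.6, 43.1 and 48.6 TPM to 17.2, 20.4 and 24.1 TPM, and in GILZ TG from 65.9, 62.3 and 57.7 TPM to 34.8, 34.3 and 32.4 TPM. In TPM every LPS-treated library was below every untreated one. On TMM-scaled counts the treatments overlapped over all genotypes and within WT, but not within GILZ KO or within GILZ TG. With TMM scaling Dusp5 fell in GILZ KO, by 0.52 (SE 0.15, edgeR adjusted p = 0.00631), and its change was -0.08 in WT (adjusted p = 0.642) and -0.24 in GILZ TG (adjusted p = 0.158). With the replicate number as a block the GILZ TG value passed the test (-0.24, adjusted p = 0.0261). On log2(TPM + 0.1) it fell by 0.73, 1.16 and 0.87 in WT, GILZ KO and GILZ TG and passed the test in each.

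Of the cytoplasmic ERK phosphatases, Dusp7 fell and Dusp6 moved with the middle of all genes. Dusp7 was at 56.7 to 68.6 TPM untreated (median 64.0) and at 14.9 to 21.8 TPM after LPS (median 18.3). The 9 LPS-treated libraries were all below the 9 untreated ones, 2.01-, 2.02- and 2.25-fold lower in WT, GILZ KO and GILZ TG with TMM scaling (log2 -1.01, -1.01 and -1.17, adjusted p at most 1.11e-08). Dusp6 was at 54.0, 54.6 and 68.7 TPM in untreated WT and at 31.8, 35.1 and 50.0 TPM after LPS. In GILZ KO it went from 62.5, 71.5 and 62.2 TPM to 44.8, 42.6 and 42.9 TPM, and in GILZ TG from 53.4, 57.1 and 69.9 TPM to 34.3, 36.8 and 42.6 TPM. On TMM-scaled counts the Dusp6 differences were 0.02, 0.05 and -0.04, with 95% intervals of -0.28 to 0.32, -0.26 to 0.35 and -0.34 to 0.26, and none passed the test. On log2(TPM + 0.1) Dusp6 fell by 0.62, 0.59 and 0.66 and passed it in each genotype. In TPM, replicate 3 of WT and of GILZ TG had the highest Dusp6 and the lowest Dusp1 of its group in both treatments, whereas on TMM-scaled counts the lowest Dusp1 of LPS-treated GILZ TG was replicate 2.

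Among the JNK- and p38-selective members, Dusp16 rose and was the only one of the 3 at an appreciable level. It was at 6.42, 7.04 and 6.26 TPM in untreated WT and at 30.4, 27.8 and 38.64 TPM after LPS. GILZ KO went from 7.38, 9.07 and 6.98 TPM to 43.7, 41.9 and 38.5 TPM, and GILZ TG from 7.01, 6.89 and 7.95 TPM to 24.5, 28.5 and 38.1 TPM. LPS-treated and untreated libraries were far apart, and after LPS the GILZ KO libraries lay narrowly above those of GILZ TG in TPM, whereas on TMM-scaled counts they overlapped (131.5 CPM in GILZ KO replicate 3 and 132.6 CPM in GILZ TG replicate 3). The rise was 7.39-fold in WT (log2 2.88, SE 0.15, edgeR adjusted p = 2.12e-11), 8.54-fold in GILZ KO and 6.26-fold in GILZ TG. Dusp10 was at 1.01 to 1.49 TPM untreated and 1.20 to 1.70 TPM after LPS (31 to 82 reads a library), and these ranges overlapped. On TMM-scaled counts all LPS-treated libraries (2.19 to 2.87 CPM, reads scaled by library size) exceeded all untreated ones (1.23 to 1.84), and Dusp10 rose by 0.46, 0.78 and 0.70 (edgeR adjusted p = 0.0198, 7.76e-04 and 0.00113), whereas on log2(TPM + 0.1) the values were -0.08, 0.15 and 0.16 and did not pass the test. The WT call was lost without untreated replicate 1 (adjusted p = 0.0686) or 2 (adjusted p = 0.0693), and the GILZ TG call without GILZ TG replicates 1 and 2 (0.71, adjusted p = 0.0724). Dusp8 was at 0.480 to 1.45 TPM with 20 to 61 reads a library, and its treatments overlapped in TPM. On TMM-scaled counts they overlapped over all genotypes and within GILZ TG, but not within WT or within GILZ KO. With TMM scaling it rose by 0.94 in WT and 1.01 in GILZ KO (adjusted p = 0.00363 and 0.00229), the value in GILZ TG was 0.44 (adjusted p = 0.130), and on log2(TPM + 0.1) the values were 0.15, 0.08 and -0.16 and did not pass.

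Dusp3, the small phosphatase of ERK and JNK, fell from 113.8, 110.0 and 107.8 TPM to 39.0, 42.7 and 44.4 TPM in WT. In GILZ KO it fell from 108.7, 129.0 and 121.3 TPM to 39.9, 38.4 and 41.0 TPM, and in GILZ TG from 107.8, 97.3 and 111.0 TPM to 33.9, 38.4 and 33.8 TPM. The treatments did not overlap. With TMM scaling it was 2.11-, 2.27- and 2.38-fold lower (log2 -1.08, -1.19 and -1.25, SE 0.07 each, edgeR adjusted p at most 2.17e-10). TMM-scaled counts are not corrected for transcript length, which for Dusp3 was shorter after LPS, as given below. On log2(TPM + 0.1) with libraries scaled to 1 median, which takes length into account, the values were smaller, at -0.75, -0.91 and -0.93. Over all 9 against 9 libraries and on TMM-scaled counts, 4 members (Dusp1, Dusp2, Dusp10 and Dusp16) were higher in every LPS-treated library and 3 (Dusp3, Dusp4 and Dusp7) lower in every one, against 26.1% and 26.2% of all genes.

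The shares of the members in their summed TPM do not depend on the scaling of a library. Dusp1 made up 22.5% ± 3.44 (SD, n = 3) of the sum in untreated WT and 44.3% ± 4.34 after LPS, and it took 42.1% ± 3.28 in GILZ KO and 43.6% ± 0.437 in GILZ TG after LPS. Dusp2 went from 0.887% to 12.8% in WT, from 0.802% to 11.0% in GILZ KO and from 1.08% to 18.4% in GILZ TG. Dusp3 went the other way, from 22.6% to 8.88% in WT. The sum itself does depend on that scaling. In TPM it was 490.7 ± 46.5 in untreated WT and 482.2 ± 69.6 after LPS, a difference within the spread. In GILZ KO it was 497.0 ± 22.8 and 436.9 ± 21.9 TPM, without overlap (471.0 to 513.7 and 411.6 to 450.4 TPM). In GILZ TG it was 517.3 ± 24.5 and 504.5 ± 2.69 TPM. On log2(TPM + 0.1) the median of all genes moved by -0.62 in WT, and the sum was not computed on TMM-scaled counts.

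**Figure D3:**
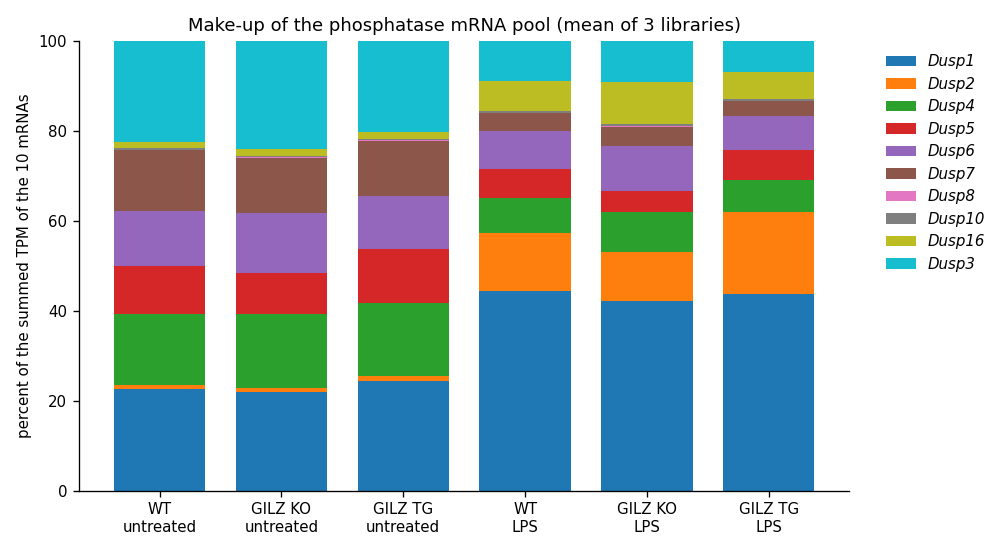
Share of each member in the summed TPM of the 10 mRNAs, in percent, as the mean of 3 libraries per group. Dusp1 and Dusp2 take larger shares in the 3 LPS groups, and Dusp3, Dusp4 and Dusp7 smaller ones.

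The second comparison asked whether the members differed between the genotypes, which in comparisons with WT differ in both Tsc22d3 and Lyz2. In the 9 untreated libraries, 0 members passed edgeR's test in GILZ KO against WT (0.0951% of all 12621 genes did) and 0 in GILZ TG against WT (0.642%). Without adjustment 2 members in each had a p-value under 0.05, against 9.60% and 14.1% of all genes. DESeq2 called 0 members in each, against 0.626% and 2.5% of all genes. In GILZ KO against GILZ TG 1 member passed, Dusp5, against 4.94% of all genes, and 3 had an unadjusted p-value under 0.05, against 24.6%. DESeq2 also called 1, against 9.65%. Dusp5 was at 43.1 to 48.6 TPM in GILZ KO and at 57.7 to 65.9 TPM in GILZ TG. The replicates did not overlap in TPM, which held for 28.7% of all genes. It was 1.38-fold lower in GILZ KO (log2 -0.47, SE 0.087, edgeR adjusted p = 0.0205). In TPM all GILZ TG libraries also lay narrowly above all WT libraries, the closest at 57.74 and 57.55 TPM (log2 0.24, edgeR adjusted p = 0.253). In that comparison 14.9% of all genes did not overlap. GILZ KO overlapped with WT (log2 -0.23, edgeR adjusted p = 0.477), where 17.2% of all genes did not overlap. The Dusp5 call was lost when GILZ KO replicate 1, 2 or 3 or GILZ TG replicate 1 or 2 was left out, with log2 values of -0.51 to -0.43 and adjusted p-values of up to 0.0965 over the 9 libraries left out in turn. Without GILZ TG replicates 1 and 2 the value was -0.38 (adjusted p = 0.190).

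After LPS, 0 members passed in GILZ KO against WT (0.0822% of all 12164 genes did), 0 of GILZ TG against WT (0.46%), and also 0 when GILZ KO was compared with GILZ TG (2.6%). Without adjustment 2, 3 and 4 members had a p-value under 0.05, against 9.63%, 15.2% and 19.1% of all genes. DESeq2 called 1, 0 and 3, against 0.822%, 2.25% and 5.88% of all genes. In GILZ KO against GILZ TG 5 members did not overlap in TPM, which held for 20.6% of all genes. The level in GILZ KO relative to GILZ TG was 1.91-fold lower for Dusp2 (log2 -0.94, SE 0.22, edgeR adjusted p = 0.0542) and 1.66-fold lower for Dusp5 (log2 -0.73, SE 0.17, adjusted p = 0.0542), and both missed the threshold. Dusp1 (log2 -0.25, edgeR adjusted p = 0.421) lay lower in every GILZ KO library in TPM. Dusp3 (0.27, edgeR adjusted p = 0.0591) and Dusp16 (0.46, edgeR adjusted p = 0.154) lay higher. For Dusp3 the margin was minimal, with the lowest GILZ KO library at 38.38 TPM and the highest GILZ TG library at 38.37 TPM. Without GILZ TG replicates 1 and 2 the values were -0.78 for Dusp2 (adjusted p = 0.402), -0.70 for Dusp5 (adjusted p = 0.353), -0.26 for Dusp1 (adjusted p = 0.727), 0.25 for Dusp3 (adjusted p = 0.409) and 0.09 for Dusp16 (adjusted p = 0.880). Without GILZ TG replicate 3 alone, a fit in which 11.2% of all genes were called, Dusp16 passed (0.67, adjusted p = 0.00775), as did Dusp3 (0.28, adjusted p = 0.0400), Dusp2 and Dusp5, and the last 2 also passed without WT replicate 1 or 3. With the replicate number as a block Dusp2 passed too (adjusted p = 0.0478). Against WT, Dusp5 was lower in GILZ KO by 0.64 (adjusted p = 0.277, DESeq2 adjusted p = 0.0363) with overlapping replicates, a comparison in which 16.3% of all genes did not overlap. Dusp3 was the only member of which all GILZ TG libraries were below all WT libraries (log2 -0.22, adjusted p = 0.162, and -0.21 with an adjusted p of 0.674 without GILZ TG replicates 1 and 2), against 15.2% of all genes without overlap. Dusp1 differed by -0.22 in GILZ KO against WT (95% interval -0.52 to 0.09) and by 0.03 in GILZ TG against WT (-0.27 to 0.34).

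**Figure D4:**
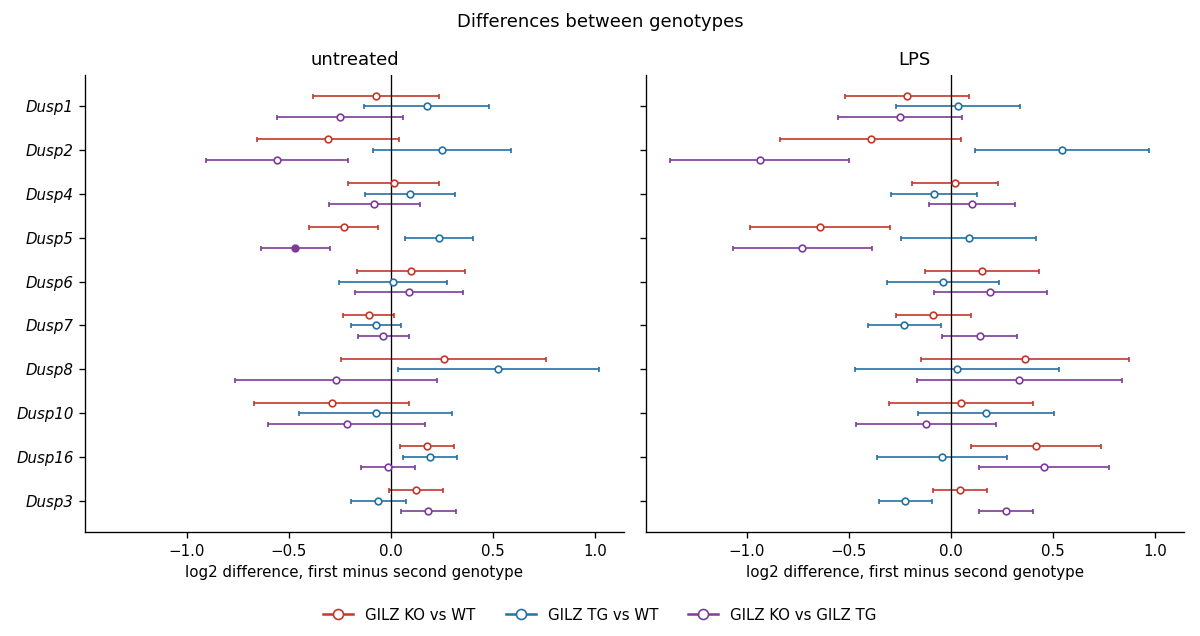
Log2 difference between genotypes for each member, untreated and after LPS, from TMM-scaled counts with 95% intervals (filled where the adjusted p-value was under 0.05). The only filled point is Dusp5 in untreated GILZ KO against GILZ TG, at -0.47.

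Whether the response to LPS itself differed between genotypes was tested as an interaction over 18 libraries. For the contrasts of GILZ KO with WT, of GILZ TG with WT and of GILZ KO with GILZ TG, 0 members passed edgeR's test, and 0.0152%, 0.00759% and 0.121% of all genes did. Without adjustment 0, 0 and 1 members had a p-value under 0.05, against 6.36%, 3.09% and 9.92% of all genes. DESeq2 called 0 members in each, against 0.152%, 0.0152% and 1.14% of all genes. The 1 was Dusp16, whose response was larger in GILZ KO than in GILZ TG by 0.45 on the log2 scale (95% interval 0.04 to 0.86, adjusted p = 0.490). For Dusp1 the differences were -0.17 (-0.65 to 0.31), -0.15 (-0.63 to 0.33) and -0.02 (-0.50 to 0.45), so at this precision a difference of that size in its induction was not detectable. For Dusp5 the response in GILZ KO was lower than in WT by 0.44 (unadjusted p = 0.0545 in edgeR's test, adjusted p = 0.786).

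The files also give for each gene a mean transcript length weighted by the estimated shares of its transcripts, which shows a shift between isoforms. Of 7888 genes tested with limma over all genotypes, 9.81% differed between LPS-treated and untreated cells, 3.16% longer and 6.66% shorter. Among the 6 members tested, Dusp3 was shorter and Dusp7 longer. Dusp3 averaged 3385 to 3876 bases in untreated libraries (median 3503) and 2664 to 3276 bases after LPS (median 2923), without overlap. The ratio was 0.825 (log2 -0.28, SE 0.03, limma adjusted p = 5.46e-05). Its 7 transcripts in that annotation are 4 of 4084 to 4445 bases and 3 of 391 to 496 bases. Dusp7 averaged 2718 to 2939 bases untreated and 2780 to 3175 bases after LPS, which overlap (log2 0.10, limma adjusted p = 0.0231), and without WT untreated replicate 2 its adjusted p-value was 0.0511. Dusp1, Dusp2, Dusp10 and Dusp16 did not pass the test, Dusp4, Dusp5 and Dusp6 have 1 transcript each in the files, and Dusp8 was below the level required.

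**Figure D5:**
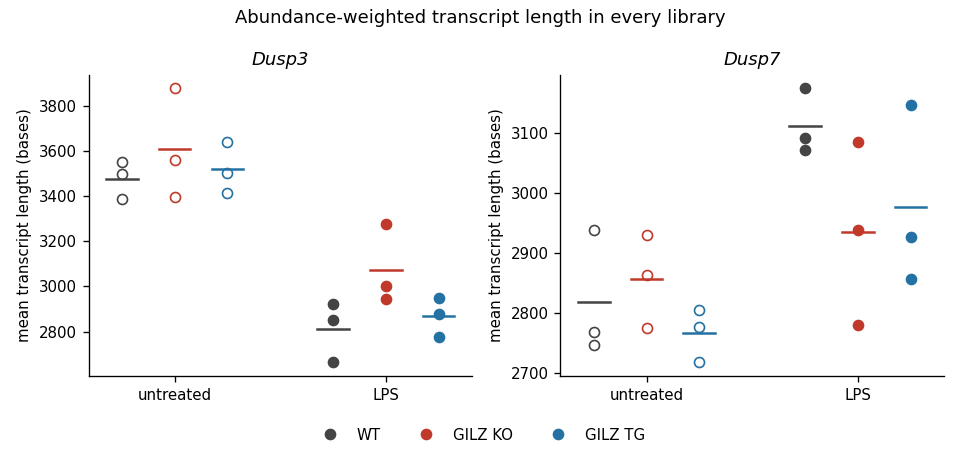
Mean transcript length in bases of Dusp3 and Dusp7 in each of the 18 libraries, with the mean of each group as a line. The axes do not start at 0. The LPS-treated libraries of Dusp3, at 2664 to 3276 bases, lie below all untreated ones, and those of Dusp7 overlap with the untreated ones.

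The MAP kinases, and the pathway around them, were taken from lists. In WT with TMM scaling, 4 of 9 MAP kinases tested were called higher and 2 lower (median log2 fold change 0.13, beside -0.02 for all genes). The 2 were Mapk7, which encodes ERK5 (log2 -1.25), and Nlk (-0.73). Mapk9 was called higher by 0.44 but its mean TPM was lower after LPS, as for Mapk14. Of 7 MAP2 kinases, 3 were called higher and 3 lower (median -0.15), with Map2k4 (1.64) and Map2k1 (1.41) up, Map2k3 (-0.35) down, and Map2k2 up with TMM scaling and lower in mean TPM. Of 17 MAP3 kinases and TAB adaptors, 4 rose and 8 fell (median -0.10). Map3k8, the kinase that drives ERK downstream of Toll-like receptors, rose by 3.44 and Tab2 by 2.01, whereas Map3k12 (-2.11) and Map3k4 (-1.59) fell. Of 10 kinases downstream of MAP kinases, 6 were called higher and 3 lower (median 0.45), with Mapkapk2, the p38 effector, up by 2.96 and Mknk2 down (-2.27), while Mapkapk5 was called higher and had a lower mean TPM.

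Of 6 other phosphatases of MAP kinases tested, 2 were called higher and 3 lower (median -0.54). Ppm1d (-1.61), Dusp9 (-1.54) and Ptpn7 (-1.15) fell, and the 2 called higher, Ppm1a and Ppm1b, had a lower mean TPM after LPS. Of 9 other small dual-specificity phosphatases 3 rose and 4 fell (median -0.37), with Dusp28 (2.15) and Dusp11 (0.94) up and Dusp19 (-0.55) down. Of 6 Sprouty and Spred inhibitors of the ERK pathway 3 were called higher and 2 lower (median 0.71), with Spred1 up by 2.12, Spred2 (-1.94) and Spred3 (-1.34) down, and Spry2 called higher (0.50) with a lower mean TPM. Among 12 early genes induced through MAP kinases 5 rose and 5 fell (median -0.05), and Zfp36 (3.49), Ier3 (2.43) and Junb (2.40) were among those that rose. All 9 MAP kinase-dependent inflammatory mRNAs rose (median 5.69), with Il6 at 11.53, Il1b at 10.04 and Ptgs2 at 7.99 on the log2 scale. In GILZ KO and in GILZ TG each of these counts differed from that in WT by at most 1.

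Between genotypes some of these genes passed the test. Of all genes, 4.94% passed in untreated GILZ KO against GILZ TG, 2.6% in that comparison after LPS and 0.642% in untreated GILZ TG against WT. The lists were chosen with earlier results of these data known, so their counts are not read against these shares. In untreated GILZ KO against GILZ TG, Egr2, an early growth response factor, was lower by 1.41 (adjusted p = 0.00697), with means of 4.94 TPM in GILZ KO and 5.203 TPM in WT and single libraries of 10.3, 15.3 and 7.65 TPM in GILZ TG. It lost the call without untreated GILZ KO replicate 1 (adjusted p = 0.0510). Map3k20 was higher in GILZ KO (0.38, adjusted p = 0.0120) and lost the call without GILZ TG replicate 2 (adjusted p = 0.0633). The other 9 called genes were Junb (-0.38), Phlda1 (-0.57), Ccl3 (-0.42), Ccl4 (-0.61), Dusp23 (-0.51), Map2k2 (-0.26), Dusp9 (0.60), Map3k5 (0.34) and Map3k1 (0.31). Each of these 9 passed in only 2 to 5 of the 9 fits that left out 1 library, and each lost the call without untreated GILZ KO replicate 1 or 2 or GILZ TG replicate 2, among others. After LPS Rps6ka1 (0.45), Mapk7 (0.51) and Map3k20 (0.44) were higher in GILZ KO than in GILZ TG. Rps6ka1 lost the call without GILZ KO replicate 1 (adjusted p = 0.0597), Mapk7 and Map3k20 without any GILZ KO replicate or GILZ TG replicate 1 or 2, and Map3k20 also without WT replicate 2. In untreated GILZ TG against WT, Egr2 was called (1.07, adjusted p = 0.0377), but of the 9 fits that left out 1 library it passed in 1, the fit without GILZ TG replicate 3. Without GILZ TG replicates 1 and 2 no call between genotypes held for these genes (adjusted p = 0.0623 to 0.402), and the Egr2 values were -0.93 for GILZ KO against GILZ TG and 0.59 for GILZ TG against WT.

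Genes whose log2(TPM + 1) pattern over the 18 libraries was most like that of a member were found among 9423 genes by Pearson correlation. For Dusp1 they were Evl (0.96) and Plod3 (0.96), for Dusp2 Gnb4 (0.99) and Otud1 (0.99), for Dusp16 Gramd1a (0.995) and Tnip1 (0.994), for Dusp7 Prkab1 (0.995), and for Dusp3 Zfand2a (0.996) and Cnot9 (0.996). For Dusp5 they were AU020206 (0.95), Hmga1 (0.95) and Vegfa (0.95), and for Dusp6 Metrnl (0.99) and Pld4 (0.98). For Dusp10 the closest was Mcmbp at 0.70. The libraries fall into untreated and LPS-treated ones, which all points share, and correlations within a treatment were not computed, so these values are a description.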

How the data were processed

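RNA of 18 BMM libraries (3 per genotype and treatment) was poly(A)-selected and sequenced as single 75-base reads. The authors processed the reads with the grape-nf pipeline on the mouse GRCm38 assembly after FastQC 0.11.2. The annotation release is not given in the sources used here. The deposited files hold, for each gene, an expected count (estimated reads, not normalised), the TPM (scaled by effective length and total) and the mean transcript length in bases, which is among the other values the authors deposited. The authors' tables from DESeq2 1.40.2 hold their fold changes and p-values, and these were used only to pair identifiers with symbols. Total counts were 14583055 to 38557029 per library (median 24450362), which limits the precision of Dusp8 and Dusp10. Rows without a gene name (14) held 0% of the reads. No library was a copy of another of its group, as at least 98.8% of genes differed between any pair of a group. Libraries of different groups were not compared in this way.

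Expected counts were rounded, filtered by filterByExpr and scaled by TMM. Comparisons used edgeR 4.0.16 (quasi-likelihood test, R 4.3.3). LPS responses and interactions came from a fit of all 18 libraries by group, and genotype comparisons from the 9 libraries of a treatment. Benjamini-Hochberg adjustment ran over all genes tested, with a threshold of 0.05. P-values measure the spread between these samples, which the study describes as independent preparations. Transcript length was tested with limma 3.58.1 on log2(length) for genes with at least 1 TPM on average. Alternatives were DESeq2 1.42.0, DESeq2 size factors, limma on log2(TPM + 0.1) or log2(TPM + 1), other filters, a replicate block, other sets of libraries and each library left out. Limma on log2(TPM + 0.1) with libraries scaled to 1 median was added after seeing the data. Tests were checked on simulated data. The members and the gene lists were chosen with earlier results of these data known. Of each pathway list, up to 4 called genes per comparison, those changed most among genes reaching 5 TPM in either group, could be named. Ppm1a, Mapk14 and Mapkapk5 were named after their values were seen. The replicate numbers were not taken as pairs between genotypes, as 2 of 18 same-numbered pairs had a correlation of deviations above 0.1, nor between treatments in WT and GILZ KO. Between the treatments of GILZ TG all 3 same-numbered pairs were above 0.1 (0.27, 0.40 and 0.60). Untreated replicate 1 with LPS replicate 2 (0.35) and untreated replicate 2 with LPS replicate 1 (0.26) were above it too. These correlations therefore cannot show that the numbers mark pairs, and the blocked value is given only as an alternative where it changes a call. Promoters were taken from RefSeq (GRCm38.p6). Plots used matplotlib 3.10.9 (Python 3.11.15). Leaving out GILZ TG replicates 1 and 2 left 1 library in that group, which is then assumed to vary like the other groups.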

Additional observations from a re-analysis of the deposited data

Results flagged for a closer look

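Mapk7, which encodes the MAP kinase ERK5, was the only gene of the members and lists whose response to LPS passed the test of a difference between genotypes. It fell after LPS in both GILZ KO (log2 -1.06) and GILZ TG (log2 -1.64). The fall in GILZ KO was smaller, by 0.58 (SE 0.093, edgeR's interaction term over 18 libraries, adjusted p = 0.0237). Untreated GILZ KO cells had 21.8 ± 0.760 TPM (SD, n = 3) and untreated GILZ TG cells 22.4 ± 1.77 TPM. After LPS the GILZ KO replicates were at 6.40, 6.59 and 6.33 TPM and the GILZ TG replicates at 4.50, 5.31 and 4.61 TPM, so the untreated libraries overlapped and those after LPS did not. Mapk7 passed in 6 of 10 alternatives and in 12 of 18 fits that each left out 1 library, with values of 0.40 to 0.65 and 0.53 to 0.61. It was lost without untreated GILZ KO replicate 1, untreated GILZ TG replicate 1 or 2, LPS-treated GILZ KO replicate 1 or 3 or LPS-treated GILZ TG replicate 2, and without GILZ TG replicates 1 and 2 the adjusted p-value was 0.378.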

How the results depend on the processing

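Dusp1, Dusp2, Dusp3, Dusp7 and Dusp16 kept their direction and call after LPS in every genotype under all alternatives run. On log2(TPM + 1) and log2(TPM + 0.1) the direction of Dusp6 reversed in WT (-0.61 and -0.62) and in GILZ KO (-0.58 and -0.59) and that of Dusp10 in WT (-0.050 and -0.083). Dusp8 in GILZ TG, not called on any scale, went from 0.44 to -0.088 and -0.16. With libraries scaled to 1 median Dusp6 was at 0.03 and Dusp10 at 0.52 in WT, and the Dusp8 calls were lost in WT (0.73, adjusted p = 0.112) and GILZ KO (0.67, adjusted p = 0.138). The number of members called after LPS was 7 to 8 in WT, 9 in GILZ KO and 7 in GILZ TG when libraries were left out in turn, and 5 in GILZ TG without its replicates 1 and 2. Between genotypes the counts were less stable, and the cause was not tested. At an unadjusted p-value the untreated comparisons gave 2 members (GILZ KO against WT), 2 (GILZ TG against WT) and 3 (GILZ KO against GILZ TG), those after LPS 2, 3 and 4, and the response of GILZ KO against GILZ TG 1. For untreated GILZ KO against GILZ TG, 0 members were called on log2(TPM + 1), on log2(TPM + 0.1), without GILZ TG replicates 1 and 2 and in a fit of all 18 libraries, and 0 to 2 when libraries were left out in turn. For GILZ KO against WT after LPS, DESeq2 called 1 and no filter 1, against 0.822% and 0.44% of all genes. For GILZ KO against GILZ TG after LPS, DESeq2 called 3 (5.88% of all genes), no filter 3 (4.11%), at least 10 counts in every library 2 (3.38%), protein-coding genes only 2 (3.23%), the 6 libraries compared 2 (2.25%) and all 18 libraries 3 (6.04%), with 0 to 4 when libraries were left out in turn. Transcript length gave 1 to 3 members when libraries were left out in turn. The replicate block called 1 member in GILZ KO against GILZ TG after LPS (Dusp2, adjusted p = 0.0478, against 2.24% of all genes) and Dusp5 in GILZ TG after LPS (-0.24, adjusted p = 0.0261), and changed no other call of a member. The block is an alternative only, as the correlations do not settle the pairing. Same-numbered libraries of different genotypes had correlations of -0.14 to 0.24. Same-numbered untreated and LPS-treated libraries had 0.27 to 0.60 in GILZ TG and -0.03 to 0.26 in WT and GILZ KO. Replicates 1 and 2 of GILZ TG had 0.35 and 0.26 across numbers. Depth limits Dusp8 and Dusp10, with 20 to 82 reads a library.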
